A study of Danio rerio with 9 samples.

Results

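A set of 7 pancreatic digestive enzyme genes was followed in the eyes of zebrafish (Danio rerio) larvae: the elastase genes ela2, ela2l and ela3l, the amylase gene amy2a, the chymotrypsin genes ctrl and ctrb.2, and the carboxypeptidase gene cpa5. Every probe set with one of these names as its single symbol in the platform annotation was taken, which gave 7 probe sets for 7 genes out of 15617 probe sets on the array and 8793 genes with a probe set of 1 symbol. The genes were chosen by their log2 signals at these same ages, chiefly by a higher signal at 5 dpf than at 3 dpf. Their levels and age differences are therefore given as a description. Counts of these genes that passed the limits of a fit, given further on, describe the choice and do not test it. RNA from eyes of larvae at 3, 4 and 5 days post fertilization (dpf) was hybridised to the Affymetrix Zebrafish Genome Array, with 3 arrays at each age. The strain and the number of larvae behind each array are not given in the sources used here, and the labels name no treatment, mutation or transgene. The methods call the arrays at 3 and 5 dpf biological replicates, whereas those at 4 dpf carry only a replicate number in their labels. The number of arrays limits the precision of every value, and the spread between arrays at 4 dpf may be partly technical.

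These enzymes are made by the acinar cells of the exocrine pancreas, which store them in zymogen granules and release them into the intestine. Elastases, chymotrypsins and trypsins are serine proteases that are made as inactive proenzymes, amylase splits starch, and carboxypeptidases of the A type take single residues from the C-terminal end of a peptide. In zebrafish the exocrine pancreas grows and begins to supply the gut over the first days of larval life. The pancreas is not part of the eye. Of 50 listed eye genes, such as the cone opsins and phototransduction genes, 31 were measured. Of the 31, 28 were at 5 or more on all 9 arrays and 20 were at 8 or more. The level of 5 lies below the array medians of 5.68 to 5.77, and the shares of all probe sets at these levels were not computed. The dimmer eye genes were cryaba (2.27 to 2.54), tyr (2.79 to 3.65) and prph2b (3.50 to 4.90).

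The elastase gene ela2l had the widest age difference of the 7. Its log2 signals were 3.01, 5.16 and 3.14 at 3 dpf, 6.74, 7.21 and 5.68 at 4 dpf, and 7.97, 8.96 and 9.91 at 5 dpf. No array at one age overlapped those at another, with means of 8.95 ± 0.97 for 5 dpf and 3.77 ± 1.21 for 3 dpf (SD, n = 3 each). The difference, 5.18 with a standard error of 0.89 on the log2 scale, is 36.2-fold.

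The neighbouring elastase gene ela2 had log2 signals of 4.49, 5.68 and 3.14 at 3 dpf, 6.84, 7.34 and 5.75 at 4 dpf, and 8.13, 9.04 and 9.84 at 5 dpf. Its ages also did not overlap, although the lowest array at 4 dpf lay only just above the highest at 3 dpf. The mean at 5 dpf was higher by 4.56 (standard error 0.88) than at 3 dpf. In the RefSeq annotation (assembly GRCz12tu) ela2 lies directly beside ela2l, and RefSeq lists ctrc, the name of chymotrypsin C, among the synonyms of ela2l. Whether probes of one gene also bind transcripts of the other was not tested, so the split of signal between the pair is uncertain.

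The third elastase gene, ela3l, had log2 signals of 2.70, 5.12 and 2.79 at 3 dpf, 5.19, 5.66 and 3.97 at 4 dpf, and 6.71, 7.24 and 8.87 at 5 dpf. Every array at 5 dpf was above every other array, while the ranges at 3 and 4 dpf overlapped, with 1 array at 3 dpf, replicate 2, more than 2 log2 units above the other two. Arrays of 5 dpf averaged 7.61 ± 1.13 and those of 3 dpf 3.54 ± 1.37 (SD, n = 3 each), a difference of 4.07 (standard error 1.03).

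For amy2a, which encodes pancreatic alpha-amylase, the log2 signals were 3.32, 5.67 and 3.84 at 3 dpf, 6.48, 5.91 and 4.90 at 4 dpf, and 8.17, 8.44 and 10.22 at 5 dpf. As with ela3l, the arrays at 5 dpf stood clear of the rest and those at 3 and 4 dpf overlapped through replicate 2 at 3 dpf. The means were 8.94 ± 1.11 for 5 dpf and 4.27 ± 1.24 for 3 dpf (SD, n = 3 each), which is 25.4-fold or 4.67 (standard error 0.96) on the log2 scale.

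The members also include chymotrypsin genes, which encode proteases that cut after large aromatic residues. The log2 signals of ctrl were 5.35, 6.29 and 5.35 at 3 dpf, 6.42, 6.38 and 5.35 at 4 dpf, and 8.34, 9.17 and 9.74 at 5 dpf, so that 3 and 4 dpf covered nearly the same range and 5 dpf lay apart. Those of ctrb.2 were 3.25, 3.85 and 3.27 at 3 dpf, 4.98, 5.49 and 4.56 at 4 dpf, and 6.58, 7.21 and 8.54 at 5 dpf, with no overlap between any of the ages. The differences between 5 and 3 dpf were 3.42 (standard error 0.51) for ctrl and 3.99 (standard error 0.61) for ctrb.2. In RefSeq ctrb.2 lies between its copies ctrb.3 and ctrb.1, and the probe sets of ctrb.2 and ctrb.1 carry the same transcript cluster in their names, so the signal assigned to either copy is uncertain.

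The carboxypeptidase gene cpa5, which lies beside cpa1 in RefSeq, had the smallest difference between 5 and 3 dpf of the 7 genes. Its log2 signals were 3.79, 6.02 and 4.31 at 3 dpf, 4.25, 4.30 and 3.86 at 4 dpf, and 6.30, 6.68 and 6.76 at 5 dpf. It was the only member whose mean at 4 dpf was below that at 3 dpf. The difference between 5 and 3 dpf was 1.88 (standard error 0.69), with replicate 2 at 3 dpf only just under the arrays at 5 dpf, and without that array it was 2.53.

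**Figure D1:**
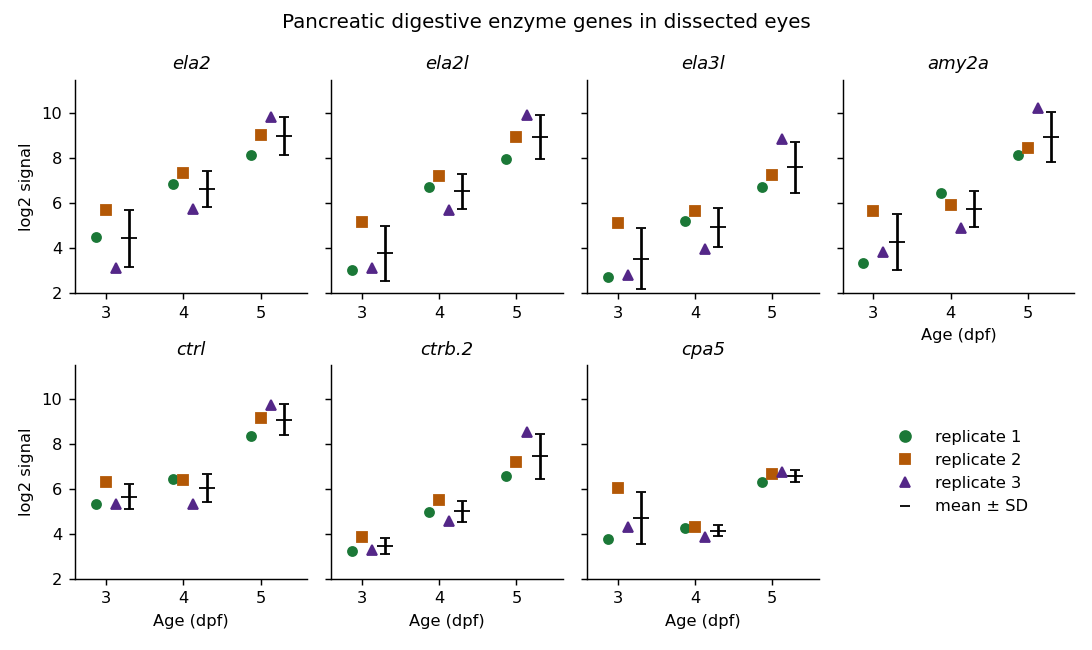
The log2 signal (vertical axis) of the 7 enzyme genes on each of the 9 arrays, by age in dpf (horizontal axis). Symbols stand for replicate numbers and the bars for the mean ± SD of 3 arrays. All 7 genes have their 3 arrays at 5 dpf above all arrays at 3 dpf, and replicate 2 is the highest of the arrays at 3 dpf in every panel.

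All 3 arrays at 5 dpf were above all 3 at 3 dpf for 7 of the 7 genes. Over the 15502 probe sets tested the same ordering held for 41.8%. The median difference of the members was 4.07 (range 1.88 to 5.18), beside a median of 0.10 over all probe sets. By the limits of the study (limma, Benjamini-Hochberg adjusted p under 0.05 and at least 2-fold) 6 of the 7, all but cpa5, were called higher at 5 dpf and 0 lower, where 2.97% of all probe sets were called higher and 2.39% lower. Since this comparison chose the genes, the counts describe the choice. With quantile normalization 5 were called, without ela3l. The counts also rested on single arrays, as did those of all probe sets. At 3 dpf 2 members were called without replicate 1, all 7 without replicate 2 and 0 without replicate 3. Of all probe sets 831 were called, and 676, 399 and 259 without these arrays in the same order. At 5 dpf 5 members were called without replicate 1, 2 without replicate 2 and 3 without replicate 3. The counts of all probe sets without these arrays were 797, 544 and 704.

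The time between 3 and 5 dpf can be split at 4 dpf, with the reservation that any difference in how the 4 dpf arrays were processed cannot be told apart from age. For the elastase genes ela2l and ela2 the first step was about as large as the second. The mean of ela2l was 2.78 (standard error 0.83) higher at 4 than at 3 dpf and 2.4 (standard error 0.72) higher at 5 than at 4 dpf. The steps of ela2 were 2.2 (standard error 0.87) and 2.36 (standard error 0.68) in the same order. For ctrb.2 they were 1.55 (standard error 0.33) and 2.44 (standard error 0.64).

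For ela3l the steps were 1.4 and 2.67 and for amy2a 1.49 and 3.18, with standard errors from 0.79 to 0.94. In ctrb.2, ela3l and amy2a the second step was the larger, but bars of 2 standard errors around the steps overlapped. Without replicate 2 at 3 dpf the first step was 2.2 for ela3l and 2.19 for amy2a.

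In ctrl and cpa5 the larger difference by far was the second step. Between 4 and 3 dpf ctrl differed by 0.39 (standard error 0.47) and cpa5 by -0.57 (standard error 0.69), neither beyond its standard error. Between 5 and 4 dpf the same genes differed by 3.03 (standard error 0.54) and 2.45 (standard error 0.20). Without replicate 2 at 3 dpf the first step was 0.70 for ctrl and 0.09 for cpa5, so the sign of the step of cpa5 depended on that array. Differences between genes in their steps were not tested.

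**Figure D2:**
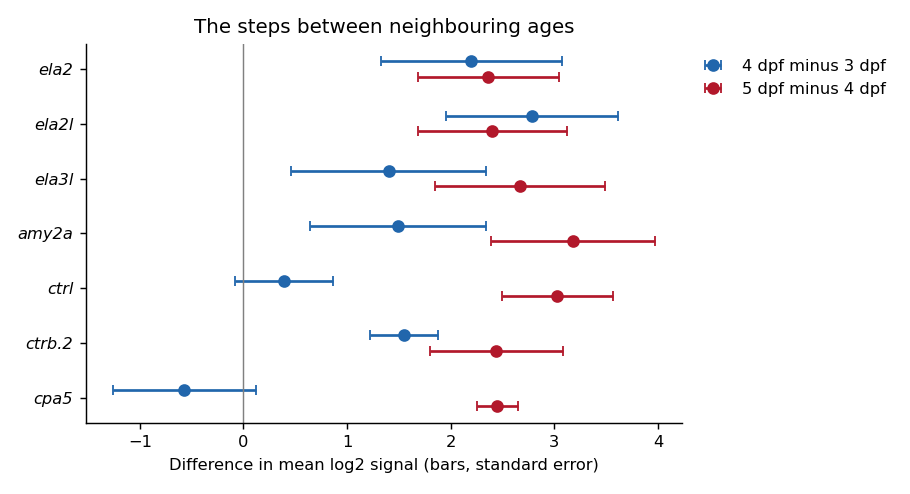
The difference in mean log2 signal (horizontal axis) between 4 and 3 dpf and between 5 and 4 dpf for each of the 7 genes, with bars for the standard error over 3 arrays an age. The second step lies between 2.36 and 3.18 for every gene, while the first runs from -0.57 for cpa5 to 2.78 for ela2l.

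Between 4 and 3 dpf, 6 of the 7 genes had a positive difference and the median was 1.49, beside 0.04 over all probe sets. The 3 arrays at 4 dpf were all above those at 3 dpf for 3 genes (ela2, ela2l and ctrb.2), an ordering that 29.2% of all probe sets had. In limma only ela2l was called higher and 0 members lower, where 1.62% of all probe sets were called higher and 1.66% lower, and ela2l was not called without any 1 of the arrays at 4 dpf, without replicate 1 or 3 at 3 dpf, or without replicate 2 at 5 dpf, which enters the shared estimate of the spread. Without replicate 1 or 3 at 5 dpf ctrb.2 was called as well, and with quantile normalization 0 members were called. Of all probe sets 509 were called between 4 and 3 dpf. Without replicates 1, 2 and 3 at 4 dpf 329, 332 and 336 were, and without those at 3 dpf 500, 392 and 334. Between 5 and 4 dpf the median was 2.45, beside 0.05 over all probe sets, and all arrays at 5 dpf were above all at 4 dpf for 7 of the 7 genes and for 23.5% of all probe sets. The genes ctrl, ctrb.2 and cpa5 were called higher and 0 members lower, where 0.264% of all probe sets were called higher and 0.174% lower. Leaving out 1 array of either age left between 0 and 2 of the 7 called, with 0 without replicate 2 at 4 dpf and only ctrl without replicate 1 or 3 at 4 dpf or replicate 2 at 5 dpf. Of all probe sets 68 were called between 5 and 4 dpf. Without replicates 1, 2 and 3 at 4 dpf 29, 19 and 27 were, and without those at 5 dpf 83, 69 and 86. The genes were chosen with their signals at all 3 ages known, so the counts of members describe the choice as well.

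Among arrays of one age most of the 7 genes varied widely and together. Their SDs at 3 dpf ran from 0.34 (ctrb.2) to 1.37 (ela3l) with a median of 1.21, where the 2809 probe sets within the members' range of means at that age (3.46 to 5.66) had a median SD of 0.18 and a 95th percentile of 0.70. At 4 dpf the members had a median SD of 0.78, beside 0.16 and 0.60 for probe sets of the same range of means. At 5 dpf it was 0.97, beside 0.29 and 0.74. Under the 95th percentile of their age were cpa5 at 4 and 5 dpf (SD 0.24 and 0.25) and ctrb.2 at 3 and 4 dpf (0.34 and 0.47). So was ctrl at 3 and 5 dpf (0.55 and 0.70).

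The same arrays were high or low for nearly all members. At 3 dpf replicate 2 was the highest array for 7 of 7 genes, and their mean signal there was 5.40, against 3.70 and 3.69 on replicates 1 and 3. At 4 dpf replicate 3 was the lowest for 7 of 7, with a mean signal of 4.87, against 5.84 and 6.04 on replicates 1 and 2. At 5 dpf replicate 1 was the lowest and replicate 3 the highest for 7 of 7, with mean signals of 7.46, 8.10 and 9.13 on replicates 1, 2 and 3. After the mean of each age was taken away, the Pearson correlation of 2 members over the 9 arrays ran from 0.50 (ctrb.2 and cpa5) to 0.99 (ela2l and ela3l) over the 21 pairs. These correlations are descriptions, since all genes were read from the same 9 RNA samples and the deviations within an age sum to 0. Over all probe sets the deviations of replicate 3 at 5 dpf also correlated with those of replicate 2 at 3 dpf (Pearson r 0.46). With replicate 2 at 4 dpf they correlated at 0.53, and replicate 2 at 4 dpf with replicate 2 at 3 dpf at 0.50. The likeness of these arrays was thus not particular to the members. In whole eye RNA more cells of a type and more RNA per cell cannot be told apart.

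**Figure D3:**
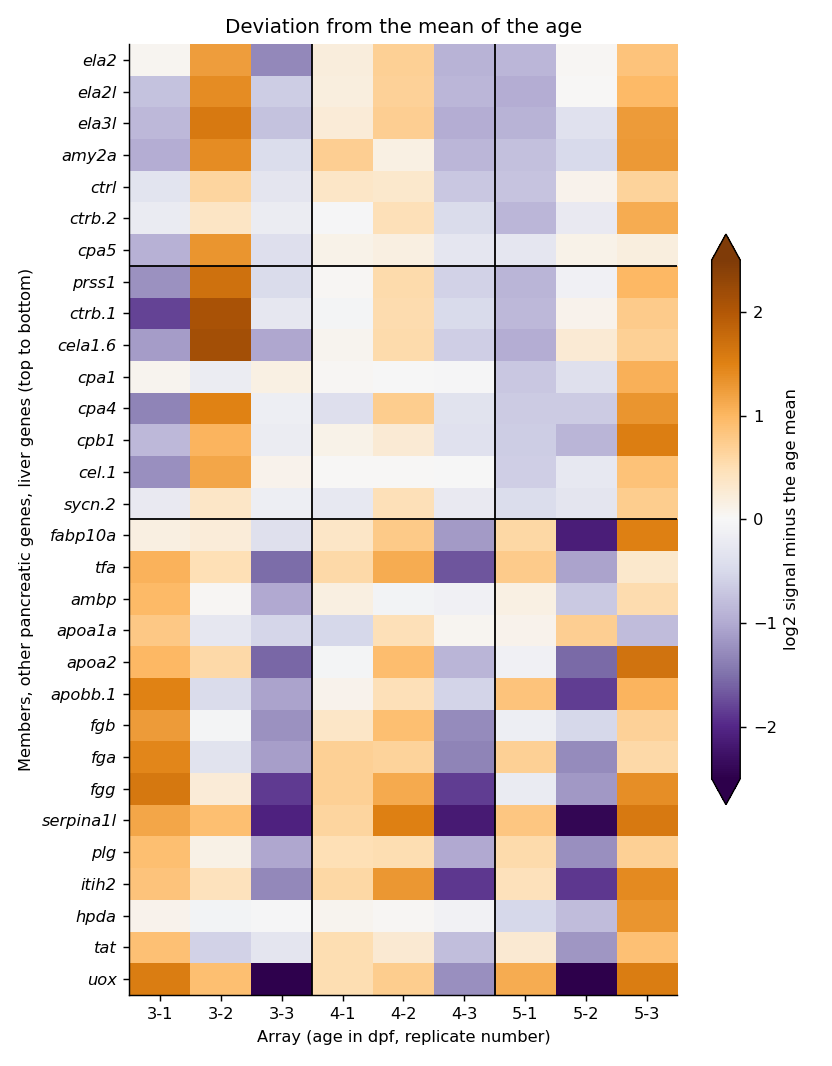
Deviation of each log2 signal from the mean of its age (colour, capped at 2.5 on either side), for the 7 members, 8 other pancreatic genes and 15 liver genes (rows, top to bottom, both lists limited to genes that reached 5 and varied by at least 2) on the 9 arrays (columns, age and replicate number). The members and the other pancreatic genes share replicate 2 at 3 dpf and replicate 3 at 5 dpf as their high arrays, while at 3 dpf the liver genes are mostly highest on replicate 1. The genes cpa1, cel.1, sycn.2 and hpda passed the limits only through replicate 3 at 5 dpf.

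Other genes of the exocrine pancreas were taken from a list of 46 enzymes and secretory proteins, of which 14 had a probe set. None of the 14 is a member, but the list was drawn up with results of these data known. With limma 0 of the 14 were called higher or lower between 5 and 3 dpf, while 7 were higher and 0 lower at an unadjusted p under 0.05, limits that 22.6% of all probe sets passed as higher and 12.6% as lower. Their median difference was 1.4 and 13 of 14 were positive, as were 9990 of the 15502 probe sets tested. For 10 of the 14 the arrays at 5 dpf were all above those at 3 dpf, an ordering that 41.8% of all probe sets had. These 10 include cela1.1, cela1.5, cuzd1.1 and pla2g1b, which stayed under 4 on all arrays.

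The 4 other pancreatic genes with the highest mean signal all had a positive difference that did not pass the test. Trypsin, which activates the other proenzymes in the gut, is encoded by prss1, whose log2 signals were 5.71, 8.62 and 6.48 at 3 dpf, 7.73, 8.28 and 7.14 at 4 dpf, and 9.17, 9.93 and 11.03 at 5 dpf. Its arrays at 5 dpf lay above all others, although replicate 2 at 3 dpf was above all of 4 dpf. The difference between 5 and 3 dpf was 3.11 (moderated standard error of limma 0.88, in place of the plain one given for the members, limma adjusted p = 0.083). The elastase gene cela1.6 had 5.25, 8.50 and 5.35 at 3 dpf, 7.58, 8.08 and 6.91 at 4 dpf, and 8.86, 10.09 and 10.51 at 5 dpf (difference 3.45, moderated standard error 1.01, limma adjusted p = 0.087). The chymotrypsin gene ctrb.1 had 4.40, 8.29 and 5.94 at 3 dpf, 6.93, 7.51 and 6.50 at 4 dpf, and 8.98, 9.91 and 10.59 at 5 dpf (difference 3.62, moderated standard error 1.05, limma adjusted p = 0.086). In all 3 of these genes replicate 2 at 3 dpf was the highest array of its age by more than 2 log2 units. The zymogen granule protein syncollin (sycn.2) covered a smaller span, 4.31, 4.91 and 4.39 at 3 dpf, 4.72, 5.42 and 4.73 at 4 dpf, and 5.55, 5.69 and 6.72 at 5 dpf (difference 1.45, moderated standard error 0.36, limma adjusted p = 0.062).

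**Figure D4:**
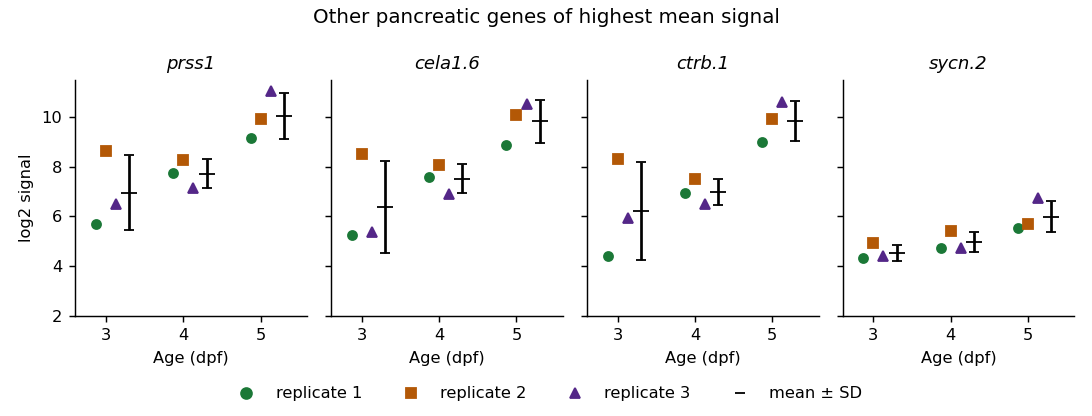
The log2 signal (vertical axis) of prss1, cela1.6, ctrb.1 and sycn.2 on each of the 9 arrays, by age in dpf (horizontal axis), with symbols for replicate numbers and bars for the mean ± SD of 3 arrays. Replicate 2 at 3 dpf lies above the mean of 4 dpf for prss1, cela1.6 and ctrb.1, and all arrays at 5 dpf lie above all arrays at 3 dpf in each panel.

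Whether these genes were called depended on the fit and on single arrays. In a fit to all 9 arrays 6 of the 14 were called higher at 5 than at 3 dpf (prss1, ctrb.1, cela1.6, cpa1, cpb1 and sycn.2, limma adjusted p from 0.017 to 0.045). Without replicate 2 at 3 dpf ctrb.1 and cela1.6 were called (limma adjusted p = 0.046 and 0.034), without replicate 1 at 5 dpf only cela1.5, and without replicate 3 at 5 dpf only cpa1. Between 4 and 3 dpf 0 of the 14 were called and 0 had an unadjusted p under 0.05 in limma (17.1% of all probe sets higher and 12.6% lower), and the median difference was 0.06. Between 5 and 4 dpf 0 were called, 11 were higher and 0 lower at an unadjusted p under 0.05 in limma (15.0% of all probe sets higher and 8.33% lower), and the median difference was 1.29. Without replicate 2 at 3 dpf, which shares in the estimate of the spread, or without replicate 1 at 5 dpf 2 of the 14 were called between 5 and 4 dpf, and without replicate 3 at 5 dpf 1 was called.

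Some genes of the list were dim or flat. The amylase gene amy2al1 had log2 signals from 4.29 to 5.43, with 3 and 5 dpf overlapping. Its difference between 5 and 3 dpf was 0.49 (limma adjusted p = 0.22), beside 4.67 for the member amy2a. The genes pla2g1b, which encodes pancreatic phospholipase A2, cela1.1, cela1.5 and cuzd1.1 stayed under 4 on all 9 arrays, and pdia2, which encodes a pancreatic protein disulfide isomerase, differed by -0.07 between 5 and 3 dpf. The carboxypeptidase genes cpa4 and cpb1 and the lipase gene cel.1, which encodes carboxyl ester lipase, had their highest arrays at 3 and 5 dpf where the members had theirs, with differences between 5 and 3 dpf of 2.09, 2.36 and 1.35 (limma adjusted p = 0.16, 0.11 and 0.22). A second probe set of cpb1 had signals of 3.43 to 4.17 at 3 dpf and of 4.48 to 6.0 at 5 dpf, whereas that of cpa4 stayed under 2 on all arrays, so the probe sets of cpa4 disagree.

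Genes that specify or regulate the pancreas had a median difference of 0.06 between 5 and 3 dpf. Of 25 listed transcription factors 14 were measured, 0 were called between any of the ages in limma, and 9 stayed under 4 on all arrays, among them pdx1, which is needed for the pancreatic bud and ranged from 2.43 to 2.62. At an unadjusted p under 0.05 there was 1 gene higher and 0 lower between 5 and 3 dpf, 0 higher and 1 lower between 4 and 3 dpf, and 2 higher and 0 lower between 5 and 4 dpf, no more than the shares of all probe sets just given. The acinar factor ptf1a, which also acts in the amacrine and horizontal cell lineages of the retina, had signals of 4.28, 4.59 and 4.35 at 3 dpf, 4.36, 4.34 and 4.53 at 4 dpf, and 3.91, 4.18 and 4.76 at 5 dpf, with overlapping ages. The 3 factors at 8 or more on all arrays, neurod1, pax6b and sox9b, are also used in the retina.

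Hormone genes of the endocrine pancreas were near the low end of the scale. Of 15 listed 6 were measured, 3 of these stayed under 4 on all arrays and 0 were called between any of the ages in limma, with 2 higher and 0 lower at an unadjusted p under 0.05 between 5 and 3 dpf, 0 higher and 1 lower between 4 and 3 dpf, and 6 higher and 0 lower between 5 and 4 dpf, beside 22.6%, 17.1% and 15.0% of all probe sets higher in the same order. The insulin gene ins had log2 signals of 4.07, 5.57 and 4.85 at 3 dpf, 3.73, 3.52 and 3.67 at 4 dpf, and 4.01, 6.53 and 5.66 at 5 dpf. Its ages 5 and 3 dpf overlapped, and at 5 dpf its highest array was replicate 2, where that of the members was replicate 3.

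Markers of the liver and intestine, the organs next to the pancreas, were read on the same arrays. Of 36 listed liver genes 24 were measured, 5 stayed under 4 on all arrays, and their mean log2 signal per array ran from 4.89 to 6.33 at 3 dpf, 5.64 to 6.78 at 4 dpf and 5.73 to 7.28 at 5 dpf. Of the 24, ambp, cp and tat were called higher at 5 than at 3 dpf in limma and 0 lower, 7 were higher and 1 lower at an unadjusted p under 0.05 (22.6% of all probe sets higher and 12.6% lower), and the median difference was 0.93. The differences ran from -2.11 to 4.52, with 20 of the 24 positive. Those of ambp, tat and cp were 4.52, 3.84 and 1.45. The values of ambp and tat lay within the members' range of 1.88 to 5.18. With the replicate number as a block, with the eBayes trend and robust settings or in the fit to all 9 arrays apoa1a was called lower besides. Without replicate 2 at 3 dpf 0 of the 24 were called, without replicate 3 at 3 dpf only ambp, and without replicate 1 or 3 at 5 dpf only ambp and cp. Of 28 listed intestinal genes 18 were measured and 10 stayed under 4 on all arrays, their mean signal per array ran from 3.52 to 4.15 at 3 dpf, 3.40 to 3.83 at 4 dpf and 3.26 to 3.57 at 5 dpf, and between 5 and 3 dpf 0 were called higher and 1, agr2, lower (2 lower, with fabp2, without replicate 2 at 3 dpf). At an unadjusted p under 0.05 2 of the 18 were higher and 3 lower in limma, where 22.6% of all probe sets were higher and 12.6% lower. Of the 31 eye genes 12 were higher and 3 lower by that limit. In the same fit 4 eye genes were called higher and 0 lower, beside 2.97% and 2.39% of all probe sets. The liver means include the bright genes rbp4 (12.01 to 12.37) and rbp4l (13.38 to 14.57), and the intestinal means rbp2a (9.24 to 10.55). The tissue behind the signals of these genes was not tested. The intestinal fatty acid binding protein gene fabp2, named after its values were seen, had 4.94, 7.37 and 4.46 at 3 dpf, 3.17, 5.13 and 2.95 at 4 dpf, and 3.26, 2.97 and 3.15 at 5 dpf. Its highest arrays at 3 and 4 dpf were those of most members, replicate 2, while its signal at 5 dpf was low on all 3 arrays. The intestinal list was divided. Of 6 intestinal genes that reached a signal of 5 and varied by at least 2, 3 were highest on replicate 1 and 3 on replicate 2 at 3 dpf. At 4 dpf 2 were highest on replicate 1 and 4 on replicate 2. At 5 dpf 3, 1 and 2 were highest on replicates 1, 2 and 3. Some of these genes passed the limits only through a single array where they were high. These were sult1st1 (replicate 1 at 3 dpf), chia.2 (replicate 2 at 3 dpf) and apoa4b.2 (replicate 3 at 5 dpf).

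The liver genes were not high on the same arrays as the members at each age. Of 15 liver genes that reached a signal of 5 and varied by at least 2, 14 were highest on replicate 1 at 3 dpf, where 0 of the 7 members were. At 4 dpf 14 of the 15 were lowest on replicate 3, as were 7 of 7 members. At 5 dpf 12 of the 15 were highest on replicate 3, as were 7 of 7 members, but 14 were lowest on replicate 2, where 0 of the members were. Of 8 other pancreatic genes chosen by the same limits, 7 were highest on replicate 2 at 3 dpf and 8 on replicate 3 at 5 dpf. The limits were applied to the same arrays that are counted here. The pancreatic genes cpa1, cel.1 and sycn.2 and the liver gene hpda passed them only through replicate 3 at 5 dpf. The counts for that array are thus partly built in. Liver and intestinal signals moved with the members on some arrays, and the part that RNA from tissue other than the eye had in the members' signals was not tested.

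**Figure D5:**
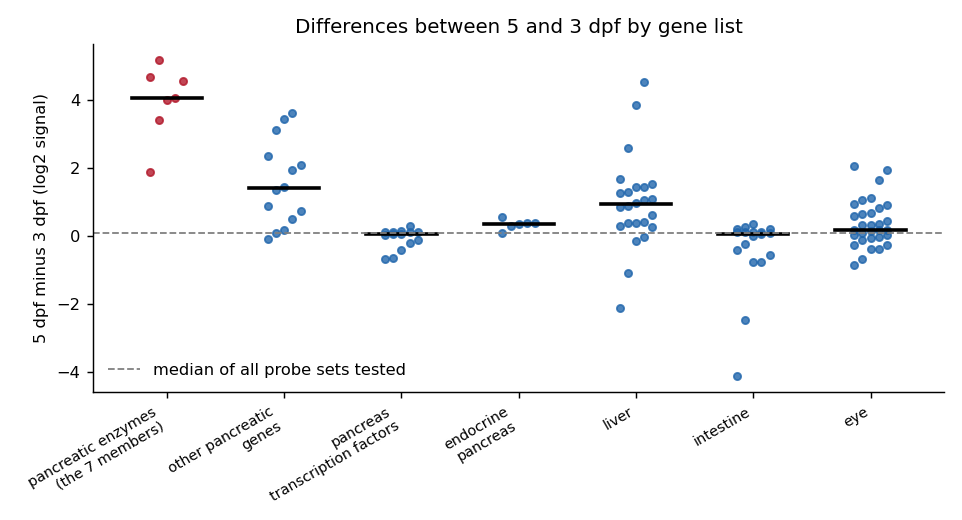
The difference in log2 signal between 5 and 3 dpf (vertical axis) of each measured gene of 7 lists (horizontal axis), 1 point a gene by its probe set of highest mean signal, with black bars for list medians and the dashed line for the median of all probe sets tested, 0.10. The members (median 4.07, chosen by this comparison) are followed by the other pancreatic genes (1.4) and the liver genes (0.93), and the transcription factor median is 0.06. The medians of the endocrine, eye and intestinal lists are 0.36, 0.18 and 0.07.

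The genes most like the members were sought among 737 other probe sets of 1 symbol with a range of at least 2 over the 9 arrays. By the Pearson correlation with the mean centred signal of the members over 9 arrays the first were prss1 (0.968), cela1.6 (0.961), sycn.2 (0.950) and ctrb.1 (0.947), all from the pancreatic list, followed by igfbp1b (0.942), mknk2a (0.922), per2 (0.916) and si:dkey-14d8.6 (0.909). The circadian gene per2, for example, had signals of 4.43, 4.77 and 4.76 at 3 dpf, 5.61, 5.92 and 5.78 at 4 dpf, and 6.64, 6.68 and 6.81 at 5 dpf. It was higher at each later age, with little spread within an age. The other genes of the pancreatic list in this search ranked lower, with cpb1 at 12, cpa1 at 23, cpa4 at 36 and cel.1 at 94 of 737. The range limit was applied to the same arrays. The genes sycn.2 and cpa1 passed it only through replicate 3 at 5 dpf, the highest array of that age for all members. Their places here and below are thus partly built in. The signals of ctrb.1 and the member ctrb.2 may also not be separate, as given above.

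By the deviations from the age means alone, the first 8 were prss1 (0.953), cela1.6 (0.930), si:ch73-380l3.2 (0.909), c7b (0.888), lgals2b (0.886), fpgs (0.872), ctrb.1 (0.867) and dnase1l4.1 (0.865). Of these lgals2b, a galectin gene, had 3.18, 6.33 and 3.44 at 3 dpf, 3.19, 4.69 and 3.47 at 4 dpf, and 3.41, 3.49 and 5.37 at 5 dpf. It was highest where most members were, on replicate 2 at 3 dpf, replicate 2 at 4 dpf and replicate 3 at 5 dpf, with means that did not climb with age. The genes prss1, cela1.6 and ctrb.1 were in both sets of 8. Of the other pancreatic genes searched, cpb1, cpa4 and sycn.2 ranked 9, 10 and 11 by the deviations. The gene cel.1 ranked 23 and cpa1 159 of 737 (0.448). These likenesses rest on the same 9 arrays and are given as descriptions.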

How the data were processed

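Total RNA of zebrafish eyes was amplified, labelled in 2 cycles and hybridised to Affymetrix Zebrafish Genome Arrays. The log2 signals used here are the values the authors deposited, made with GCRMA (version not given in the sources used here) as 1 value per original probe set, with array medians between 5.68 and 5.77. Detection calls are not part of the values used, and GCRMA compresses low signals, so differences of dim probe sets are uncertain. Symbols came from the platform annotation (10802 probe sets with 1 symbol, 135 with several, 4680 with none), and 10718 matched RefSeq by Entrez identifier, the 7 members among them.

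The members and gene lists were chosen with earlier results of these data known. Probe sets other than 115 controls (15502) were fitted in R 4.3.3 with limma 3.58.1 (lmFit, eBayes, Benjamini-Hochberg, adjusted p under 0.05, at least 2-fold), on the 6 arrays at 3 and 5 dpf as in the study's methods, and on all 9 for comparisons with 4 dpf. The study applied its limits to probe sets remapped to newer gene annotation, and the original probe sets were fitted here. The calls are therefore not those of the study. The fit was tested on simulated data. List genes were measured by their probe set of highest mean signal. Named from the list were up to 6 called genes of largest difference (0 here) and the 4 uncalled of highest mean signal, and the 8 probe sets most like the members in each of 2 ways. Same-numbered arrays at 4 and 3 dpf deviated together from their age means over all probe sets (Pearson r 0.60, 0.50 and 0.44), at 5 and 3 dpf not in every pair (0.54, 0.01 and 0.04), nor at 5 and 4 dpf (0.72, -0.07 and -0.03). Some arrays of unlike number also deviated together. Replicate 3 at 5 dpf did so with replicate 2 at 3 dpf (0.46) and at 4 dpf (0.53). Replicate 2 at 5 dpf did so with replicate 3 at 4 dpf (0.50). All other pairs of unlike number were at 0.21 or lower. These hints come from the data and not from the labels, and the replicate block joins only arrays of the same number. Alternatives were quantile normalization, median centring, a floor of 4, a mean of at least 5, a replicate block, other eBayes settings, controls kept, other array sets, no fold limit and leaving out each array. No 2 arrays shared more than 114 equal values.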

Additional observations from a re-analysis of the deposited data

How the results depend on the processing

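Between 5 and 3 dpf 831 probe sets were called, 409 with signals under 4 set to 4 and 1755 with no fold limit. Leaving out 1 array gave 259 to 797, with 259 without replicate 3 at 3 dpf, 399 without replicate 2 at 3 dpf and 544 without replicate 2 at 5 dpf. Between 4 and 3 dpf 509 were called, 286 with the floor of 4, 2077 with no fold limit and 329 to 527 without 1 array, where leaving out replicate 3 at 3 dpf gave 334 and replicates 1, 2 and 3 at 4 dpf 329, 332 and 336. Between 5 and 4 dpf 68 were called, 12 with the floor, 10 with a mean signal of at least 5, 1251 with no fold limit and 19 to 86 without 1 array, where leaving out replicates 1, 2 and 3 at 4 dpf gave 29, 19 and 27. The floor and the mean filter change which dim probe sets can be called, and dropping the fold limit can only add calls. Leaving out 1 array leaves fewer arrays for the fit, and what else changed those counts was not tested.

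Of the other pancreatic genes 0 were called between 5 and 3 dpf, but 2 with median centring, 4 with a mean of at least 5, 5 with the eBayes trend and robust settings, 6 in the fit to all 9 arrays and 0 to 2 without 1 array. Between 5 and 4 dpf 0 were called, 1 with the trend and robust settings, 1 in the fit to the 6 arrays compared and 0 to 2 without 1 array. With the replicate number as a block the counts of all probe sets were 921, 559 and 84 for 5 minus 3, 4 minus 3 and 5 minus 4 dpf, each within 1.5 times the unblocked count, and the other pancreatic genes called stayed at 0. Of the members 5 in place of 6 were called between 5 and 3 dpf with the block. Quantile normalization gave 5 between 5 and 3 dpf and 0 between 4 and 3 dpf. A mean of at least 5, the trend and robust settings and the fit to all 9 arrays called all 7 between 5 and 3 dpf. Of all probe sets these settings called 948, 1106 and 1105. The mean is over all 9 arrays, and those of ela3l, cpa5 and sycn.2 were under 5 at 3 and 4 dpf. These genes thus passed it only through their arrays at 5 dpf, and their calls under it are partly built in. A mean of at least 5 left 1 of 3 members, ctrl, between 5 and 4 dpf. With the floor of 4 the members called were 3 between 5 and 3 dpf, 0 between 4 and 3 dpf and 0 between 5 and 4 dpf, and in the fit to the 6 arrays compared ctrb.2 in place of ela2l was called between 4 and 3 dpf.

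The median difference of the members without 1 array was 3.44 to 4.87 between 5 and 3 dpf, 1.01 to 2.19 between 4 and 3 dpf and 2.04 to 2.89 between 5 and 4 dpf. Of 63 differences of single members under other settings in each comparison, none between 5 and 3 or 5 and 4 dpf moved beyond 1 SD or changed sign. Between 4 and 3 dpf 1 moved further, that of ctrb.2 (1.01 with the floor of 4), and 1, of cpa5, changed sign. The SD was that among arrays of the ages compared, which leaving out 1 of 3 arrays cannot exceed. Only quantile normalization, median centring and the floor of 4 could therefore pass this limit. It was also wide, as the step of ela3l between 4 and 3 dpf fell from 1.4 to 0.58 with the floor and stayed within it. Each member has 1 probe set, so counting 1 probe set per member changed nothing. The search for promoter motifs was not run. With 3 arrays per age and signals of several members under 4 at 3 dpf, fold changes of the dimmest probe sets are the least certain.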
